A study of Mus musculus with 12 samples.

Results

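The regions described here are open stretches of chromatin that lay away from gene ends, gave strong signal in wild-type blood stem cells and in the progenitors they give rise to, and had nearly the same mean signal in both. They were chosen from a table of 188262 regions in which reads of ATAC-seq had been counted, an assay in which the Tn5 transposase cuts and tags accessible DNA. A region was taken if it lay on an autosome, more than 1 kb from both ends of every protein-coding RefSeq gene and within 100 kb of a gene body. It also had to have a mean of at least 20 CPM, the count scaled for the total count of its library, in wild-type long-term haematopoietic stem cells (LT-HSC) and in wild-type multipotent progenitors (MPP), with a ratio of MPP to LT-HSC means between 0.8 and 1/0.8. The rule gave 1827 regions, 0.970% of the table and 1.26% of the 144561 autosomal distal regions. The wild-type levels and their ratio chose the regions, so both are given as description and were not tested.

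The study compared KO with WT male mice in both populations, with 3 libraries in each of 4 groups. KO mice were Phf6-/Y Rosa26+/Cre-ERT2, and WT mice were Phf6f/Y Rosa26+/+, which carry the floxed allele without the recombinase. For LT-HSC the labels give 20000 sorted cells, taken 8 weeks after tamoxifen. All KO libraries carried Cre-ERT2 and WT libraries did not, and its effect cannot be told apart from that of Phf6 loss. The labels do not say how the MPP were prepared, nor whether LT-HSC and MPP libraries of the same number came from the same mouse. Phf6 is an X-linked PHD-finger protein that binds chromatin and is recurrently mutated in leukaemia.

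Totals ran from 22665988 to 48547234 counts per library, and the least-covered member had 314 counts in its poorest library. Regions at the 8 LT-HSC marker genes, such as Hlf, Mecom and Procr, summed to 996 to 1010 CPM in KO LT-HSC and 936 to 981 CPM in WT LT-HSC, against 648 to 665 CPM in KO MPP and 600 to 676 CPM in WT MPP. Regions at the 5 MPP marker genes, such as Flt3 and Cd48, summed to 431 to 440 CPM in KO MPP and 441 to 459 CPM in WT MPP, against 262 to 265 CPM in KO LT-HSC and 258 to 270 CPM in WT LT-HSC, so both labelled populations carried their markers. The strongest region at Phf6 itself, by its start, held 26.3 to 28.3 CPM in KO LT-HSC, 26.0 to 27.9 CPM in WT LT-HSC, 27.3 to 28.9 CPM in KO MPP and 30.8 to 32.3 CPM in WT MPP. Accessibility there does not check the deletion.

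Accessible regions away from genes are commonly enhancers, which bind transcription factors and act on a gene at a distance, or insulator sites. LT-HSC sustain blood formation over a lifetime and largely rest, whereas MPP divide more and have lost long-term self-renewal. Enhancers are known to differ between cell states more than promoters do. A promoter is the stretch around a transcription start where the polymerase assembles, and promoters rich in CpG dinucleotides tend to be open in most cell types.

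The label distal held for gene ends but not for transcription starts. A start listed in RefSeq lay inside 469 of the 1827 regions (25.7%), of which 372 held a start of a protein-coding gene, 120 that of a long non-coding RNA and 23 both. These are starts other than the outer end of a coding gene, such as internal promoters. The share was 10.4% of 2903 strong distal regions whose WT means were unequal, 74.5% of 4464 strong regions near gene ends whose WT means were equal, and 1.99% of all autosomal distal regions. The unequal class did not all reach the level threshold in both WT populations, which only 2728 distal regions did, the 1827 included. Its median level was 22.6 CPM in WT LT-HSC and 22.4 CPM in WT MPP, against 31.2 CPM in each for the 1827 regions. Contrasts with this class, here and below, thus mix level with inequality. A further 108 regions had a start outside them but within 1 kb. The share was larger at higher signal, with 59 of 451 regions (13.1%) below 25 CPM and 69 of 152 (45.4%) at 60 CPM or more in the mean of the 12 libraries.

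The promoter windows of these starts were rich in CpG. RefSeq's promoter table (build GRCm38.p6) gives 300 bases around each start, and 234 of the 469 windows lay wholly inside their region. Over the 469 windows the median GC content was 61.3%, against 52.7% over all 32851 windows of the table. At least 10 CpG dinucleotides were present in 86.6% of the 469, against 43.5% of all windows. The share was 96.0% for starts in the strong regions near gene ends and 67.4% for starts in the strong distal regions unequal in WT. The windows below are printed because the results below turn on their regions, with capitals marking the GC box GGGCGG, the ETS motifs ACTTCCT and CCGGAAG and the GATA motif AGATAA on either strand. Rfx1, Gtpbp2 and Hdac4 had strong signal that was close in all groups or slightly higher in KO. Erg, Mad2l2 and Atad1 had higher signal in KO cells of both populations, and Gm34254, a predicted non-coding RNA inside Pde6b, had lower signal in KO MPP.
Rfx1 (chr8:84066586-84066885, plus strand): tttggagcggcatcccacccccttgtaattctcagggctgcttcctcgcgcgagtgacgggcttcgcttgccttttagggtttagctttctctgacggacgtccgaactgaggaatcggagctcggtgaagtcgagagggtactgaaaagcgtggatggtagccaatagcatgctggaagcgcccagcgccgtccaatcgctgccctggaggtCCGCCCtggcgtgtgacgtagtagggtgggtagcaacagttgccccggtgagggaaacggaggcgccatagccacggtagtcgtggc
Gtpbp2 (chr17:46160782-46161081, plus strand): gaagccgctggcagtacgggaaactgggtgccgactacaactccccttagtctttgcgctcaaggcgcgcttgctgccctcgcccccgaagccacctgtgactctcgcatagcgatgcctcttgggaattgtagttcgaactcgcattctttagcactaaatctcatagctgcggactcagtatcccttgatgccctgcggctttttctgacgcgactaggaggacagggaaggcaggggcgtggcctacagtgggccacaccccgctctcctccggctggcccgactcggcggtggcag
Hdac4 (chr1:92180292-92180591, minus strand): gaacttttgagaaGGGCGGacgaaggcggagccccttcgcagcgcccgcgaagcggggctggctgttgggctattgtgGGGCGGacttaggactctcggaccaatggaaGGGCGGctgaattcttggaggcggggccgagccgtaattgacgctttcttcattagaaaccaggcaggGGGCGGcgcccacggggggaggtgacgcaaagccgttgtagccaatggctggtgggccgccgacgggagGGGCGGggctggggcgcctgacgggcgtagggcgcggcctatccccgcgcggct
Erg (chr16:95459299-95459598, minus strand): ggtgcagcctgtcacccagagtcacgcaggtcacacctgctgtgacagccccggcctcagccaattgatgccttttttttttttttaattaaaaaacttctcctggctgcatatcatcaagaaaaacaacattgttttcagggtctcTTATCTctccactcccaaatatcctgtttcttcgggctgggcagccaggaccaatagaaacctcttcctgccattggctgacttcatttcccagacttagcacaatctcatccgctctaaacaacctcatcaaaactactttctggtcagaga
Mad2l2 (chr4:148140240-148140539, plus strand): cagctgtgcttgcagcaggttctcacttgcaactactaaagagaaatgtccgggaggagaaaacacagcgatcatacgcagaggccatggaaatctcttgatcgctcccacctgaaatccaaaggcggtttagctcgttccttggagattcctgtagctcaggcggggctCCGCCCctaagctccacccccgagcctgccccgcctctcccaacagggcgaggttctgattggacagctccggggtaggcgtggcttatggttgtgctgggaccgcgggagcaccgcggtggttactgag
Atad1 (chr19:32712249-32712548, minus strand): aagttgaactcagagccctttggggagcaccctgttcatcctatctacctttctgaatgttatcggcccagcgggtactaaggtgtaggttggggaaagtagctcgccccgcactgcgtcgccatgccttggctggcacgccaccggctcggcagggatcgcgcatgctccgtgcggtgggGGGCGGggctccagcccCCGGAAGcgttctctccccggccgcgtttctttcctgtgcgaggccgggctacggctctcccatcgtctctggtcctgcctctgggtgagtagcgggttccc
Gm34254 (chr5:108405525-108405824, minus strand): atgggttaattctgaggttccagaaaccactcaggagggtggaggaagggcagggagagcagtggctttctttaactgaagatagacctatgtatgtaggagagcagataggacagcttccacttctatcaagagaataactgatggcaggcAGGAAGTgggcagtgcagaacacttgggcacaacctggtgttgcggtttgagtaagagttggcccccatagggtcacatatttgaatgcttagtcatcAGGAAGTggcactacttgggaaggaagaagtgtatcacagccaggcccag
The windows of Rfx1, Gtpbp2, Hdac4, Mad2l2 and Atad1 held 25, 22, 32, 17 and 24 CpG dinucleotides, whereas Erg held 4 and Gm34254 held 1. The Hdac4 window had 5 GC boxes, the Erg window a single GATA match and the Gm34254 window 2 ETS matches, while Gtpbp2 had none of the 3 motif types. No match says only that these letters are absent from the window.

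Over all 469 windows, the GC box was found in 68.7%, against 35.7% of all windows, and an ETS motif in 26.9%, against 17.3%. Starts in the strong regions near gene ends had the GC box in 74.2% and an ETS motif in 31.0%, and those in the strong distal regions unequal in WT had the GC box in 57.8% and an ETS motif in 22.3%. The E-box CACGTG was in 9.38%, against 7.15%. Motifs that were less common than in the whole table were the GATA motif given above (4.26% against 11.2%), the AP-1 motif TGANTCA (4.48% against 7.81%), the RUNX motif TGTGGTT (3.62% against 5.27%) and the E-box CAGCTG (12.6% against 16.3%). Rarer motifs were CRE (TGACGTCA, 3.20% against 1.79%), NRF1 (2.13% against 0.971%), YY1 (AAGATGGC, 3.20% against 2.75%) and CTCF (3.62% against 2.43%). Both strands were searched, and none of these motifs contains another. The windows are those of starts and not the whole regions, and a match describes letters and not binding.

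**Figure D1:**
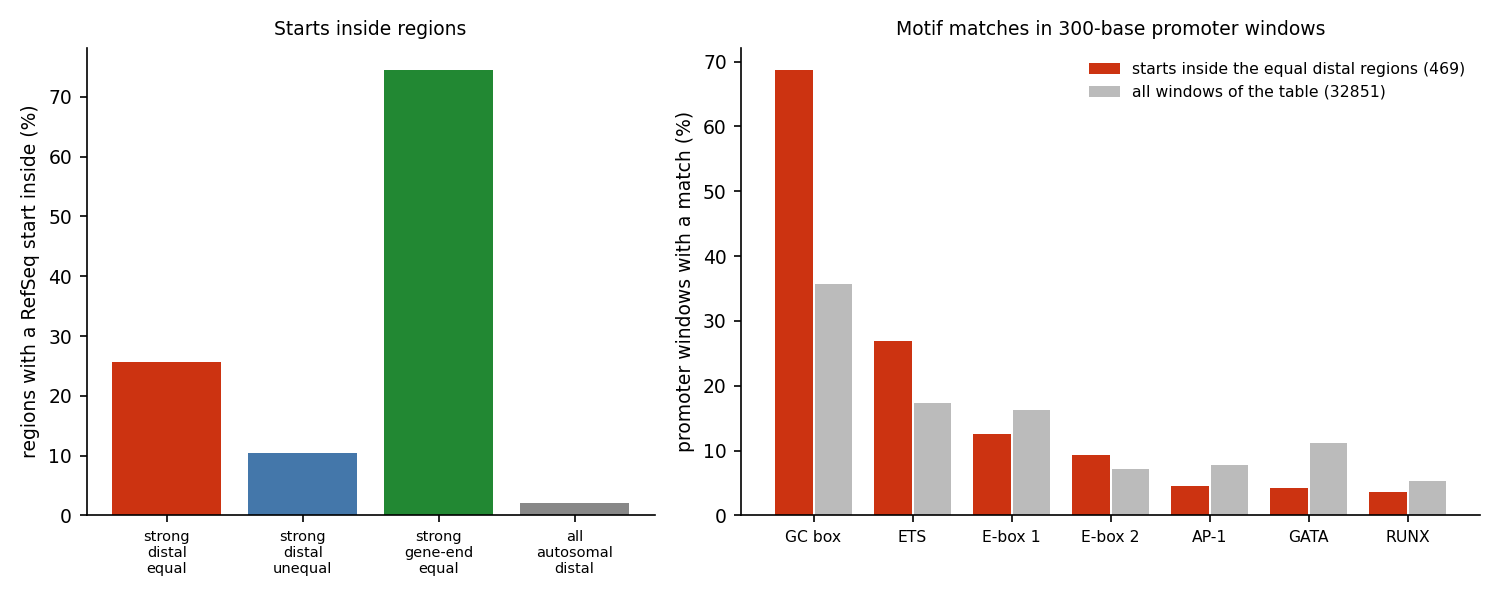
Left, percentage of regions with a RefSeq transcription start inside, for the 4 classes of region. Right, percentage of 300-base promoter windows with a match to each motif, for windows of starts inside the equal distal regions (469) and for all windows of the table (32851); E-box 1 is CAGCTG and E-box 2 is CACGTG. The GC box stands at 68.7% against 35.7%.

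The regions were compact and spread over the genome. Their median length was 457 bp, with a range of 402 to 1502 bp. Bodies of protein-coding genes held 1207 of them (66.1%), and 620 lay between such genes, called between genes here. Of the 620, 67 held the start of a long non-coding RNA. The median distance to a coding gene end was 8538 bp, against 18713 bp for all distal regions; 281 lay within 2 kb and 191 over 50 kb away. Chromosomes 11 and 7 held the most, with 172 and 154, which were 1.74% and 1.81% of the distal regions there. The lowest share was 0.928% on chromosome 1.

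Each region was assigned to the coding gene it overlapped or lay nearest to, which does not show that it acts on that gene. The 1827 regions fell to 1564 genes, of which 1363 had a single one. Gse1, which encodes a protein of a histone demethylase complex, and Tex14, a gene of male germ cells, had 6 each, and Bahcc1 had 5. The 6 regions in Tex14 had group means between 50.6 and 85.8 CPM, and their KO MPP to KO LT-HSC log2 fold changes stayed between -0.06 and 0.07. Against WT, the Tex14 region at chr11:87422825-87423231 was called higher in KO LT-HSC (0.26, adjusted p = 0.0166) and in KO MPP (0.25, adjusted p = 0.0148), and that at chr11:87448486-87448952 in KO MPP (0.22, adjusted p = 0.0188), calls that were each lost under 3 to 5 alternatives. Fosb, an immediate-early transcription factor gene, had 4 regions.

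The mean over the 12 libraries had a median of 31.2 CPM and ran from 19.0 to 131 CPM, against a median of 1.64 CPM for all distal regions. Together the 1827 regions held 6.49% to 6.79% of each library's counts in 0.956% of the region length. Just inside the level threshold were regions at Ninj2 and Mmel1, both at 20.01 CPM in the lower of the WT means, and just outside were Cep41 at 19.99 CPM and Arid2 at 19.98 CPM. At the lower ratio bound Tle3 (0.8009) and Arhgap24 (0.801) were inside and Nudt3 (0.7999) and Cpne2 (0.7992) outside. At the upper bound Ttll1 (1.2498) and U2af2, which lay at the bound itself, were inside and Gem (1.2509) and Foxn2 (1.251) outside.

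Among the strongest regions with a start was that of Rfx1, a winged-helix transcription factor gene (chr8:84066445-84066917). It held 124, 123 and 117 CPM in KO MPP and 130, 121 and 127 CPM in KO LT-HSC, with 126 CPM in each WT MPP library and 121, 125 and 140 CPM in WT LT-HSC. The LT-HSC groups overlapped, the KO MPP libraries lay just below the WT MPP libraries, and none of the 3 comparisons passed the test. With the loess offset KO MPP against KO LT-HSC was called at -0.26 (adjusted p = 9.38e-06). The promoter window printed above lies inside it. The strongest region, between genes at 4930467E23Rik (chr8:19784432-19784972), held 142, 144 and 154 CPM in KO MPP and 119, 116 and 119 CPM in KO LT-HSC, a log2 fold change of 0.32 ± 0.05 (SE, adjusted p = 8.56e-07).

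The KO libraries took no part in the choice of regions and so gave a separate measure of the MPP to LT-HSC ratio. In KO cells the ratio of means was between 0.8 and 1/0.8 at 1653 of 1827 regions (90.5%), against 26.4% of all tested regions. It was below 0.8 at 126 and above 1/0.8 at 48, with a median of 0.994 and a range of 0.623 to 1.96. The share was 94.7% for the strong regions near gene ends that were equal in WT and 10.8% for the strong distal regions that were unequal in WT. It was 392 of 451 regions (86.9%) below 25 CPM and 150 of 152 (98.7%) at 60 CPM or more.

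The interval of the difference gave a stricter count. A fold change was estimated with edgeR's quasi-likelihood test on all 12 libraries, with adjusted p-values by Benjamini-Hochberg over 186373 regions. The 95% interval of KO MPP over KO LT-HSC lay wholly inside the band from 0.8 to 1/0.8, which is -0.32 to 0.32 on the log2 scale, at 1129 regions (61.8%), against 5.52% of all tested regions. The median half-width of the interval was 0.144 here and 0.421, more than the 0.32 of the band, over all tested regions. Among the strong regions near gene ends that were equal in WT, 69.8% had their interval inside the band. For the distal regions the interval lay wholly outside the band at 24, 7 above and 17 below. The gene-end share of counts, which differed between groups, is given below with the KO and WT comparison, and as a covariate it left 628 intervals in the band. The share did not overlap between the KO populations, so a fit with it estimates their difference less precisely.

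**Figure D2:**
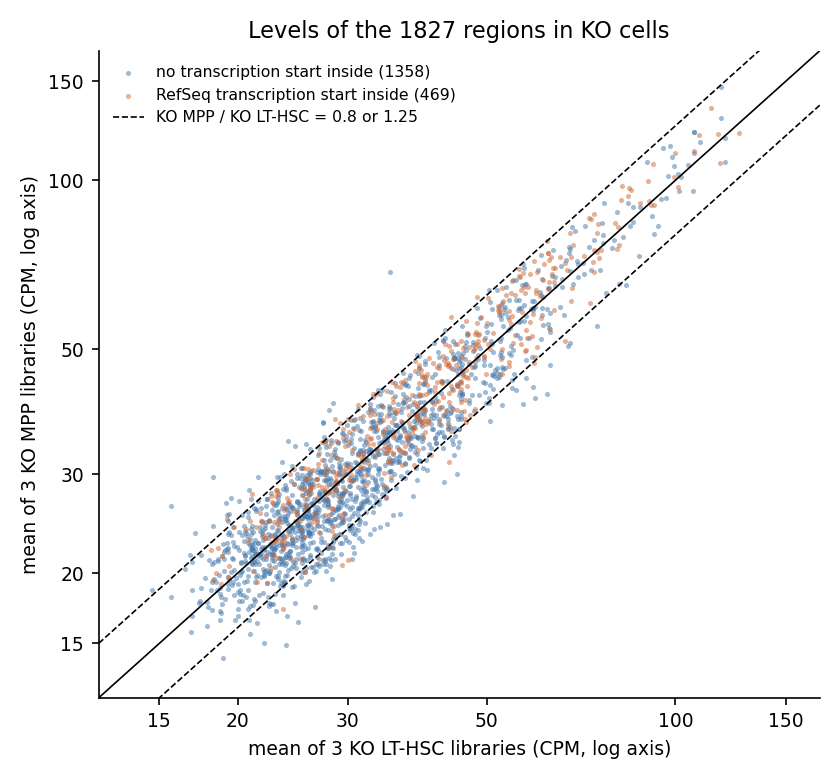
Mean CPM of each of the 1827 regions in the 3 KO LT-HSC libraries (horizontal, log axis) and the 3 KO MPP libraries (vertical, log axis); the solid line marks equal levels and dashed lines ratios of 0.8 and 1/0.8. Regions with a RefSeq start inside are orange; 1653 regions lie between the dashed lines.

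Small differences between the KO populations were still detected. Of the 1827 regions, 811 (44.4%) passed an adjusted p of 0.05, 398 higher and 413 lower in KO MPP, against a background of 67.7% of all tested regions (33.3% higher and 34.4% lower). Libraries of the groups did not overlap at 971 regions (53.1%), against 71.1% of all tested. The median log2 fold change was -0.002, 90% of the values lay between -0.35 and 0.29, and 20 regions reached 0.5 in size. Strong distal regions that were unequal in WT were called at 97.6%. The split depended on scaling: a loess offset that removes trends with signal gave 229 higher and 669 lower, and a covariate for the gene-end share gave 78 higher and 291 lower.

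**Figure D3:**
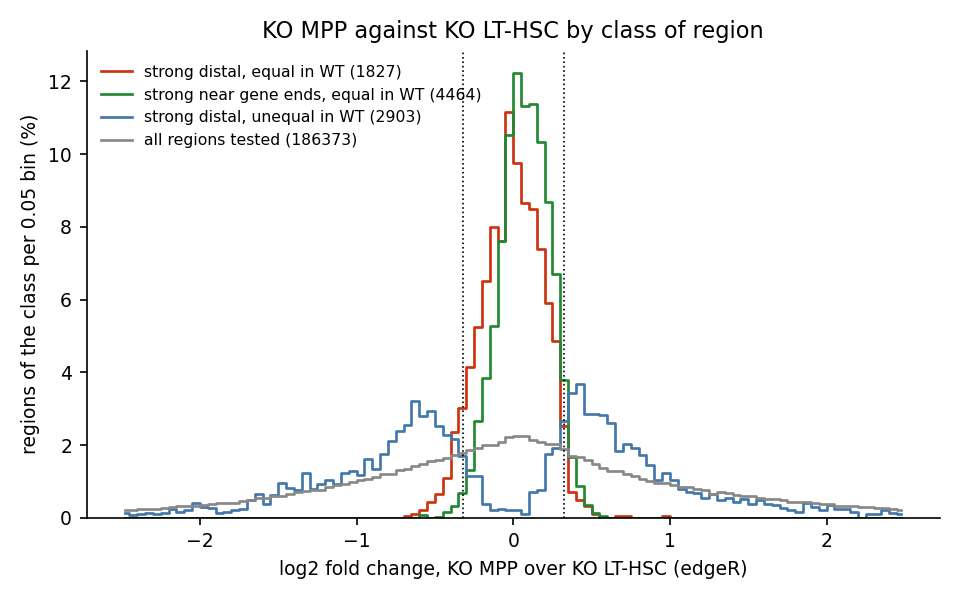
Distribution of the log2 fold change of KO MPP over KO LT-HSC, as a percentage of each class per bin of 0.05; dotted lines mark ratios of 0.8 and 1/0.8, and values beyond the axis are not drawn. The strong distal regions equal in WT centre on -0.002, and those unequal in WT lie mostly outside the dotted lines.

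The regions with intervals closest to 0 included that of Gtpbp2, a GTPase gene linked to the rescue of stalled ribosomes (chr17:46160729-46161168). It held 74.4, 73.5 and 75.3 CPM in KO MPP and 74.0, 77.4 and 73.1 CPM in KO LT-HSC, and its log2 fold change of -0.00 had a 95% interval of -0.11 to 0.11. WT MPP held 72.0, 73.0 and 71.0 CPM and WT LT-HSC 76.5, 74.6 and 79.4 CPM, and KO did not pass the test against WT in either population. Regions at Mier3, Ccdc9 and Kat6b, the last a histone acetyltransferase gene, had intervals no wider than -0.12 to 0.11. All 4 intervals lay inside the band, and Kat6b and Ccdc9 were higher in KO than in WT LT-HSC by 0.22 and 0.19. The Ccdc9 call (adjusted p = 0.0409) was lost without any 1 of the 6 LT-HSC libraries, and that of Kat6b without WT replicate 1, with the loess offset and with the gene-end share. With the loess offset all 4 regions were called lower in KO MPP than in KO LT-HSC, by -0.16 at Gtpbp2, -0.19 at Mier3, -0.20 at Kat6b and -0.12 at Ccdc9.

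The region most raised in KO MPP over KO LT-HSC was at Camk1d, a calcium and calmodulin-dependent kinase gene (chr2:5379111-5379524). KO MPP held 63.5, 68.1 and 74.2 CPM and KO LT-HSC 39.3, 34.4 and 31.4 CPM, so that the log2 fold change was 0.97 ± 0.08 (adjusted p = 8.48e-13). WT MPP held 46.6, 48.1 and 43.7 CPM and WT LT-HSC 39.1, 40.5 and 34.6 CPM, so the KO MPP libraries stood above all others. Regions at Rpn1, a subunit of the complex that adds sugars to proteins, and at Cntnap5b, a neuronal cell adhesion gene, were higher by 0.75 and 0.70. The Rpn1 region was also called lower in KO than in WT LT-HSC (-0.33, adjusted p = 0.0433). It was not called in KO against WT MPP (0.20, adjusted p = 0.186). U2af2, a splicing factor gene at the edge of the WT rule, was higher by 0.52.

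The largest fall in KO MPP against KO LT-HSC was smaller than the largest rise. Falls were more common beyond the band, with 17 intervals wholly below it and 7 above. The region at Magi1, a scaffold protein gene of cell junctions (chr6:94253937-94254398), held 16.8, 15.8 and 12.1 CPM in KO MPP and 23.5, 23.8 and 24.5 CPM in KO LT-HSC. Its log2 fold change was -0.68 ± 0.09 (adjusted p = 6.74e-08), and the WT libraries held 20.4, 23.4 and 23.8 CPM in MPP and 25.8, 26.0 and 26.9 CPM in LT-HSC. The regions at Rai1 and Zfp661 fell by 0.61 each, Klf13, a Krüppel-like transcription factor gene, by 0.57, and Ctif, a translation factor gene, by 0.56. Each of the calls of the 5 highest and 5 lowest kept its side of the threshold under every alternative run.

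A pair of microRNA hairpins lay inside a single region, which was described after its values were seen. Mir132 and Mir212 lie in the region assigned to Ovca2 (chr11:75173315-75173845), and their 3′ arms share the seed, bases 2 to 8, given in capitals. Both sequences are RefSeq's, build GRCm38.p6.
mmu-miR-132-3p: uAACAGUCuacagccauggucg
mmu-miR-212-3p: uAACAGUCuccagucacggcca
The region held 31.7, 31.4 and 29.1 CPM in KO MPP and 24.6, 24.5 and 26.6 CPM in KO LT-HSC, with 28.9, 27.1 and 28.9 CPM in WT MPP and 20.7, 23.8 and 24.0 CPM in WT LT-HSC. KO MPP was higher by 0.29 ± 0.07 (adjusted p = 0.000551), a call that was lost once the gene-end share was a covariate. The counts measure the DNA and not the microRNAs.

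In these bulk libraries a change in the mixture of cells and a change of accessibility per cell cannot be told apart. The WT libraries in both KO against WT comparisons also chose the regions, by level and by ratio. Selection on WT values thus enters the fold changes and their agreement between populations, and its size was not tested. In KO against WT LT-HSC, more of these regions were higher than lower under the main scaling. The test called 229 (12.5%), 211 higher and 18 lower in KO, against 4.74% of all tested regions (3.27% higher and 1.47% lower). The share was 10.3% for the strong distal regions unequal in WT (256 higher and 44 lower) and 17.8% for the strong regions near gene ends (783 higher and 11 lower). The median log2 fold change was 0.054, against -0.001 over all tested regions. In size, 10 regions reached 0.5, against 26372 of the 186373 tested. All tested regions were far weaker, with a median of 1.85 CPM in WT LT-HSC against 31.2 CPM. Smaller changes can be called at stronger regions, so shares called, here and below, mix level with the effect of KO. Libraries did not overlap at 660 regions (36.1%), against 24.0% of all tested. Regions with a start had 66 higher and 0 lower of 469, and those without had 145 higher and 18 lower of 1358. At an unadjusted p under 0.05, 172 of 469 regions with a start and 413 of 1358 without passed, against 37363 of all 186373 tested. DESeq2, with both classes together, called 213 higher and 15 lower.

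In KO against WT MPP the calls were nearly balanced. The test called 394 (21.6%), 214 higher and 180 lower in KO, against 8.71% of all tested regions (5.12% higher and 3.59% lower). The share was 23.1% for the strong distal regions unequal in WT and 20.6% for the strong regions near gene ends. The median log2 fold change was 0.021, against -0.009 over all tested regions. In size, 15 of the 1827 regions and 27616 of the 186373 tested reached 0.5. Libraries did not overlap at 807 regions (44.2%), against 28.0% of all tested. Regions with a start had 75 higher and 10 lower, and those without had 139 higher and 170 lower.

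These directions moved with the scaling. With total-count scaling there were 114 higher and 48 lower regions in KO LT-HSC and 176 higher and 271 lower in KO MPP. With the loess offset there were 78 higher and 110 lower in KO LT-HSC and 148 higher and 357 lower in KO MPP, so the balance turned in both. For regions with a start the loess offset gave 28 higher and 17 lower in KO LT-HSC and 56 higher and 36 lower in KO MPP, and those without a start had 92 higher and 321 lower in KO MPP. The share of counts within 1 kb of gene ends was 39.2% to 39.6% in KO LT-HSC and 37.8% to 38.9% in WT LT-HSC, and 41.0% to 41.4% in KO MPP and 39.2% to 41.0% in WT MPP. When that share was a covariate, 51 regions were called in KO LT-HSC, 48 higher and 3 lower. In KO MPP 158 were called, 65 higher and 93 lower. The share followed the groups compared, with no overlap in LT-HSC and little in MPP. A fit with it as a covariate thus estimates the group difference less precisely, and a call lost there does not show that the groups were equal. The part of the gene-end share in these results was not tested. The counts were lower without any 1 of the compared libraries. In LT-HSC 113, 118 and 135 regions were called without KO replicates 1, 2 and 3, and 122, 166 and 164 without WT replicates 1, 2 and 3. In MPP they were 382, 211 and 182 without KO replicates 1, 2 and 3, and 349, 260 and 326 without WT replicates 1, 2 and 3. Leaving out a library also leaves fewer replicates, and its part in these drops was not tested.

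The LT-HSC and MPP comparisons used no library in common. Whether same-numbered libraries shared a mouse is not known, so the comparisons may not be independent. Of the regions higher in KO, 110 were called in both populations, 52.1% of those in LT-HSC and 51.4% of those in MPP. Over all tested regions the shared calls were 45.4% of the LT-HSC list and 29.0% of the MPP list, and 1.48% of all tested regions were called higher in both. The part of the stronger signal of the 1827 regions in this contrast was not tested. Of those lower in KO, 13 were called in both, 72.2% of the LT-HSC list and 7.22% of the MPP list. Over all tested regions the lower lists shared 30.5% and 12.5%, and 0.449% of all tested regions were called lower in both. Only 18 of the 1827 regions were lower in LT-HSC, beside 180 in MPP, which capped the MPP share below 12.5%. None of the 1827 regions was called in opposite directions. Such calls were rare, with 11 among all 186373 tested regions, so their absence here does not set these regions apart.

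**Figure D4:**
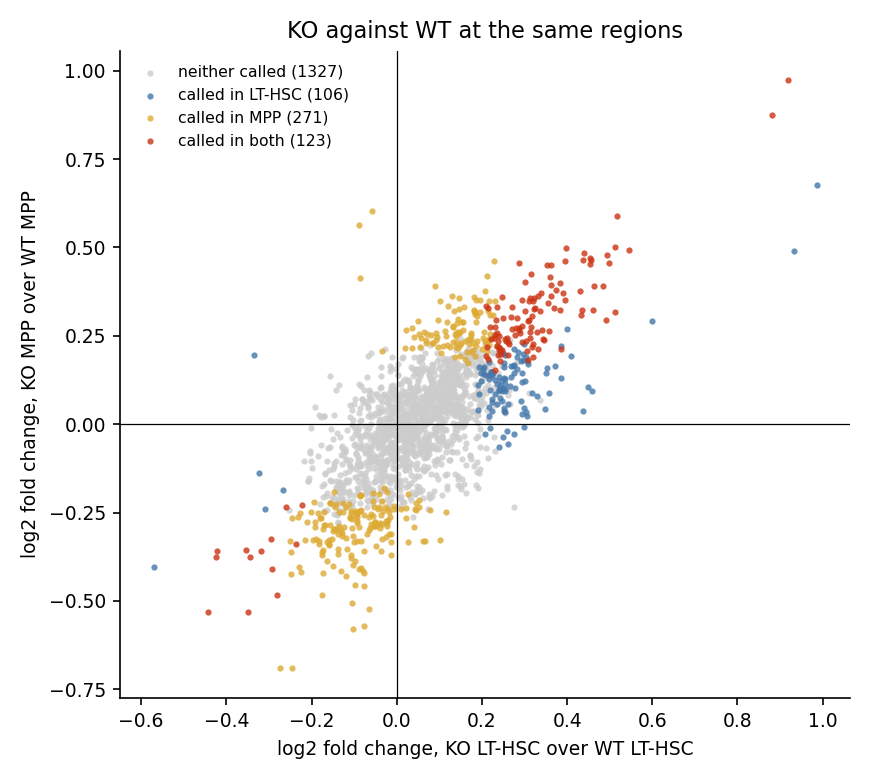
Log2 fold change of KO over WT in LT-HSC (horizontal) and in MPP (vertical) for each of the 1827 regions, coloured by where it was called. Points called in both lie in the upper right (110) and the lower left (13).

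The strongest rises shared by both populations were at Adgre5 and Lama1. Adgre5 encodes CD97, an adhesion receptor of leukocytes, and its region (chr8:83756711-83757130) held 86.4, 98.9 and 102 CPM in KO LT-HSC and 65.5, 51.8 and 40.3 CPM in WT LT-HSC. KO MPP held 73.1, 115 and 154 CPM and WT MPP 47.8, 64.9 and 66.1 CPM. The groups did not overlap in either population, although KO MPP libraries spread widely, and the log2 fold changes were 0.92 ± 0.15 (adjusted p = 0.000558) in LT-HSC and 0.97 ± 0.15 (adjusted p = 0.000172) in MPP.

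The Lama1 region (chr17:67741198-67741605), in the gene of a laminin chain of basement membranes, held 82.7, 129 and 109 CPM in KO LT-HSC and 76.1, 49.8 and 55.0 CPM in WT LT-HSC. KO MPP held 104, 110 and 151 CPM and WT MPP 55.0, 66.6 and 82.6 CPM. Both log2 fold changes were 0.88 ± 0.13, with adjusted p = 0.000235 in LT-HSC and 0.000145 in MPP. The Adgre5 and Lama1 calls held under every alternative run, although both were among the regions with widely spread WT libraries described below.

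Regions at the starts of Erg, Mad2l2 and Atad1, whose windows are printed above, rose in both populations. At Erg, an ETS transcription factor of stem cells (chr16:95458680-95459813), KO LT-HSC held 35.8, 39.0 and 40.1 CPM and WT LT-HSC 25.9, 27.3 and 30.6 CPM, which made a log2 fold change of 0.51 ± 0.08 (adjusted p = 0.000285). KO MPP held 26.8, 33.0 and 33.6 CPM and WT MPP 22.7, 20.5 and 24.8 CPM, so that the log2 fold change was 0.50 ± 0.08 (adjusted p = 0.000229). In both populations every KO library stood above every WT library, and another region of Erg, without a start, rose by 0.32 in LT-HSC and 0.35 in MPP, the LT-HSC call being lost without WT replicate 2 and with the loess offset.

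At Mad2l2, which encodes REV7, a protein of DNA repair and damage bypass (chr4:148139983-148140648), KO LT-HSC held 65.3, 60.8 and 64.1 CPM and WT LT-HSC 51.1, 50.1 and 45.0 CPM. KO MPP held 65.2, 69.6 and 69.2 CPM and WT MPP 51.3, 51.1 and 48.6 CPM. The log2 fold changes were 0.44 ± 0.06 (adjusted p = 8.81e-05) and 0.47 ± 0.06 (adjusted p = 2.45e-05), with the KO libraries above all WT libraries. Atad1, an ATPase gene of mitochondria and peroxisomes, rose by 0.40 and 0.46. These 3 were picked after their values were seen, as those with the largest smaller change of the 2 populations among 18 regions whose window lay wholly inside and which were higher in both. Their calls in KO against WT held under every alternative run.

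**Figure D5:**
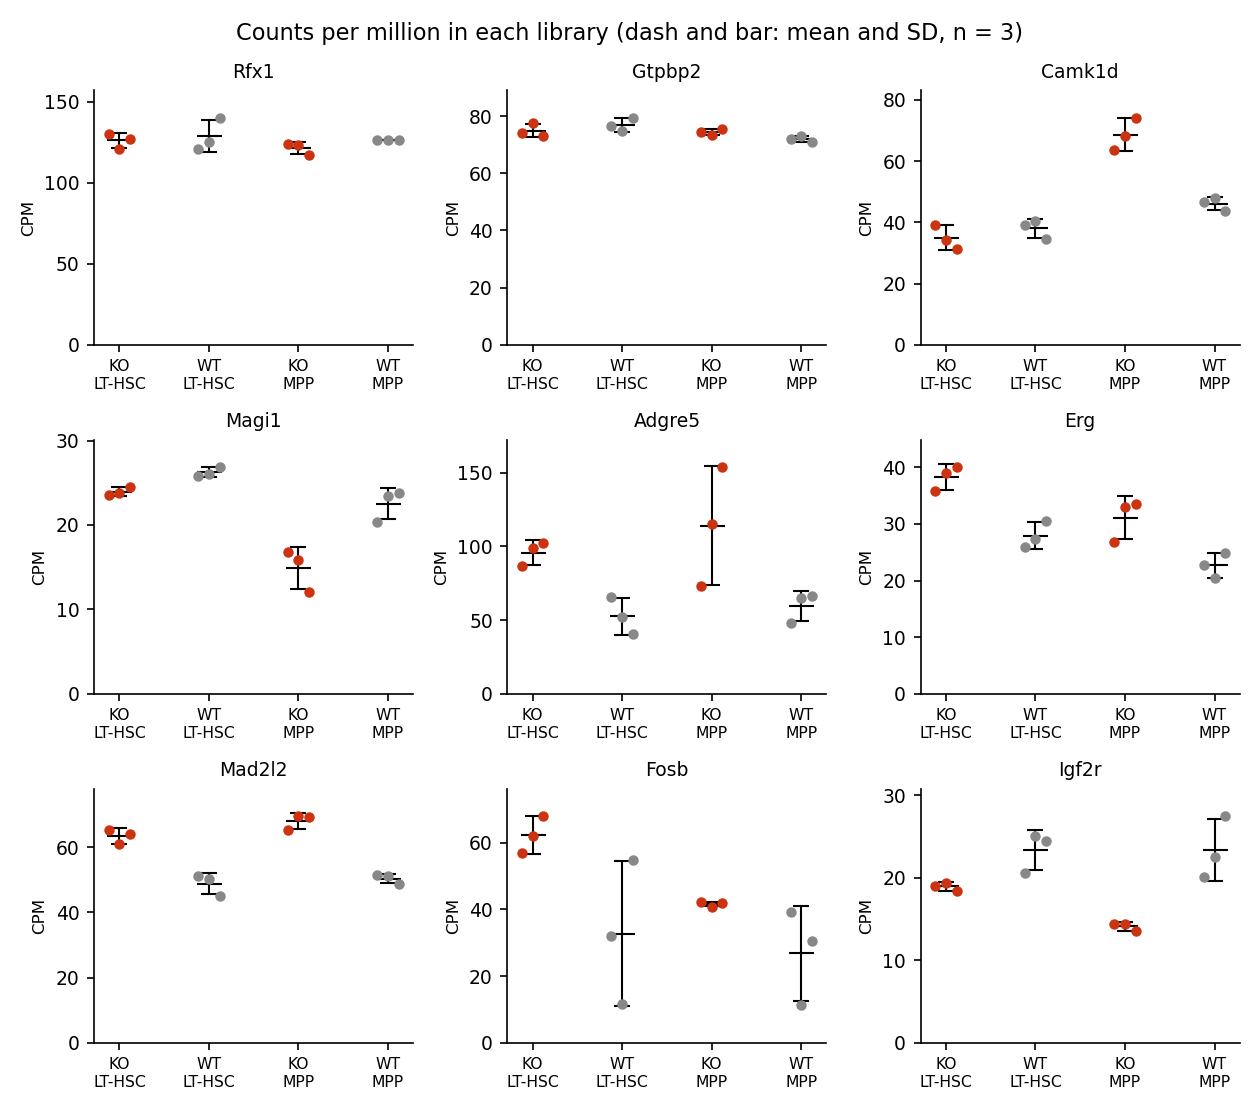
CPM in each library (points) with mean and SD (n = 3) at 9 regions, KO red and WT grey; Erg is the region with a start and Fosb the one at chr7 with the higher fold change. Adgre5, Erg and Mad2l2 are higher in KO in both populations, while Rfx1 and Gtpbp2 passed the test in none of the 3 comparisons except, with the loess offset, KO MPP against KO LT-HSC.

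Some rises in KO LT-HSC rested on unsteady WT libraries. The coefficient of variation among WT replicates was over 20% in at least 1 WT group at 19 regions, so their equality by the rule rested on means of spread libraries. At Fosb (chr7:19304817-19305885) KO LT-HSC held 56.8, 61.9 and 68.1 CPM and WT LT-HSC 32.1, 11.5 and 54.7 CPM, and the log2 fold change was 0.99 ± 0.28 (adjusted p = 0.0361). KO MPP held 42.2, 40.8 and 41.9 CPM and WT MPP 39.1, 11.2 and 30.4 CPM. WT replicate 2 was the lowest in both populations, and the call was lost without it and under 9 other alternatives.

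WT replicate 2 was also the lowest WT LT-HSC library at other immediate-early genes among the 19, which respond fast to stimulation. At Klf6 (chr13:5864196-5864974) KO LT-HSC held 32.8, 33.0 and 35.2 CPM and WT LT-HSC 22.3, 16.5 and 30.6 CPM, and the log2 fold change of 0.60 ± 0.12 (adjusted p = 0.00271) held under every alternative run. At Fos (chr12:85485812-85486290) the values were 62.5, 67.4 and 63.0 CPM in KO LT-HSC and 53.4, 40.4 and 60 CPM in WT LT-HSC. At Dusp1, a phosphatase gene, they were 39.6, 43.3 and 42.8 CPM in KO LT-HSC and 33.6, 24.2 and 41.3 CPM in WT LT-HSC. The rises at Fos (0.39, adjusted p = 0.0217) and Dusp1 (0.40, adjusted p = 0.049) were lost without WT replicate 2, but also without any 1 of the KO LT-HSC replicates, with DESeq2, with total-count scaling and with the loess offset.

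Egr2, another immediate-early gene, had steady WT libraries. Its region with a start (chr10:67537340-67537984) held 57.3, 62.3 and 60.8 CPM in KO LT-HSC and 42.8, 44.1 and 44.5 CPM in WT LT-HSC, a log2 fold change of 0.51 ± 0.06 (adjusted p = 1.82e-05). KO MPP held 49.1, 52.9 and 49.6 CPM and WT MPP 44.5, 41.2 and 38.5 CPM, with a log2 fold change of 0.32 ± 0.06 (adjusted p = 0.00166) whose call was lost once the gene-end share was a covariate. It was chosen for this description after its values were seen.

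Further rises in KO MPP, beside Adgre5 and Lama1, were at Camk1d (0.60), Olfr750, an olfactory receptor gene (0.59), and Cntnap5b (0.56). The Olfr750 region was also called higher in KO LT-HSC (0.52, adjusted p = 0.000358 by edgeR). Those at Camk1d and Cntnap5b were not called there (-0.06 and -0.09). The region at Camk1d thus stood higher in KO MPP than in KO LT-HSC and than in WT MPP, while its KO LT-HSC and WT LT-HSC libraries overlapped. Among falls in KO LT-HSC whose libraries did not overlap with WT, Mideas, a gene of a histone deacetylase complex, fell by 0.42, Slc16a1, a lactate transporter gene, by 0.42, and Inpp4a, a phosphoinositide phosphatase gene, by 0.35. Nfkbil1 fell by 0.35 and Selenof by 0.34. All of these but Mideas lost their call once the gene-end share was a covariate. The largest called fall, -0.57 at Tram1 (adjusted p = 0.0355), had overlapping libraries, with 21.2, 21.3 and 15.8 CPM in KO LT-HSC and 19.4, 35.9 and 35.3 CPM in WT LT-HSC, and was lost under 7 alternatives.

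Falls in KO MPP were larger. Igf2r, the receptor that clears insulin-like growth factor 2, had a region between coding genes (chr17:12793860-12794342). Among genes of any type, the region overlapped or lay nearest to Airn. It held 14.4, 14.4 and 13.5 CPM in KO MPP and 20.1, 22.5 and 27.5 CPM in WT MPP. Its log2 fold change was -0.69 ± 0.09 (adjusted p = 2.31e-05). KO LT-HSC held 19.0, 19.4 and 18.4 CPM and WT LT-HSC 20.6, 25 and 24.5 CPM, where the change of -0.25 did not pass the test. Cdh17, a cadherin gene, fell by 0.69, Rgs3, a regulator of G protein signalling, by 0.58, Magi1 by 0.57 and Nfkbil1 by 0.53. At the start of Gm34254, whose window is printed above, KO MPP held 18.3, 17.5 and 16.0 CPM and WT MPP 25.8, 26.4 and 23.5 CPM, so that the log2 fold change was -0.52 ± 0.08 (adjusted p = 9.4e-05).

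Gene lists showed which known blood genes had such regions. The regions were 1.36% of the distal regions of the blood transcription factor list, against 1.26% of all autosomal distal regions. For the receptor, chromatin and cytoskeleton lists below the shares were 1.73%, 1.19% and 2.09%. Of 49 genes of blood transcription factors, 16 had 23 regions; 5 were higher and 0 lower in KO LT-HSC, 7 higher and 3 lower in KO MPP, and 4 higher and 7 lower in KO MPP against KO LT-HSC, with list medians of 0.11, 0.09 and -0.03. Over all tested regions the shares called higher and lower were 3.27% and 1.47% in KO LT-HSC, 5.12% and 3.59% in KO MPP, and 33.3% and 34.4% in KO MPP against KO LT-HSC, with medians of -0.001, -0.009 and 0.000. Over the 1827 regions, which are stronger, they were 11.5% and 0.985%, 11.7% and 9.85%, and 21.8% and 22.6%. Beside Erg, the region of Gfi1b, a repressor of the erythroid and megakaryocyte lines, rose by 0.39 in KO LT-HSC and 0.37 in KO MPP. The LT-HSC call was lost without KO LT-HSC replicate 3. Its values were 24.5, 24.4 and 29.8 CPM in KO LT-HSC and 19.7, 19.6 and 23.0 CPM in WT LT-HSC. Gata2, a factor of stem cells and early progenitors, had 29.2, 28.6 and 28.1 CPM in KO MPP and 22.8, 23.9 and 21.5 CPM in WT MPP, a rise of 0.36 (adjusted p = 0.00119).

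Smad3, a mediator of transforming growth factor signals, had 3 regions. That at chr9:63726509-63727016 held 27.3, 25.3 and 19.9 CPM in KO MPP and 34.7, 34.3 and 32.4 CPM in KO LT-HSC, a fall of 0.48. Another at chr9:63721502-63721972 had 29.6, 29.2 and 24.1 CPM in KO MPP and 36.4, 35.9 and 33.6 CPM in WT MPP, a fall of 0.33 that was lost without KO MPP replicate 3. Within a gene the regions could differ: of the 2 at Runx1, the region without a start was lower by 0.25 and the region with a start higher by 0.18 in KO MPP against KO LT-HSC, and the call at the start was lost with total-count scaling and with the loess offset.

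Of 40 receptor and signalling genes, 39 of them in the annotation, 11 had 14 regions, with 4 higher and 0 lower in KO LT-HSC, 2 higher and 0 lower in KO MPP, and 2 higher and 6 lower in KO MPP against KO LT-HSC. Their medians were 0.09, 0.08 and -0.04, and over all tested regions 3.27%, 5.12% and 33.3% were higher and 1.47%, 3.59% and 34.4% lower. The region between genes near Cxcr4, the receptor that holds stem cells in the marrow, had 49.5, 45.7 and 47.4 CPM in KO LT-HSC and 41.6, 39.6 and 34.8 CPM in WT LT-HSC. KO MPP had 50, 53.7 and 51.1 CPM and WT MPP 45.6, 40.2 and 38.7 CPM. The rises were 0.35 and 0.34, and both were lost once the gene-end share was a covariate. Near Kit, the stem cell factor receptor, KO MPP was lower than KO LT-HSC by 0.28, with 47.4, 45.1 and 43.2 CPM in KO MPP and 59.5, 53.2 and 53.0 CPM in KO LT-HSC.

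Of 36 chromatin regulators, 7 had 8 regions, with 2 higher and 0 lower in each KO against WT comparison and 2 higher and 1 lower in KO MPP against KO LT-HSC, with medians of 0.05 in LT-HSC, 0.01 in MPP and 0.05 between the KO populations. Over all tested regions 4.74%, 8.71% and 67.7% were called in these comparisons. The stronger of the 2 regions of Dnmt3a, a DNA methyltransferase gene (chr12:3855664-3856353), held 58.9, 55.7 and 50.8 CPM in KO MPP and 78.3, 70.0 and 76.4 CPM in KO LT-HSC, a fall of 0.44 (adjusted p = 6.5e-07), while the other rose by 0.22, a call lost when the gene-end share was a covariate and without KO MPP replicate 2. Hdac4, a histone deacetylase gene, held 121, 111 and 119 CPM in KO LT-HSC and 102, 106 and 103 CPM in WT LT-HSC, a rise of 0.24 that was lost with the gene-end share, with the loess offset and without KO LT-HSC replicate 1. Of 23 cytoskeleton and vesicle genes 9 had 11 regions, with 5 higher and 3 lower in KO MPP against KO LT-HSC (67.7% of all tested called), 2 higher and 0 lower in KO LT-HSC against WT (4.74% of all tested) and 1 higher and 0 lower in KO MPP against WT (8.71% of all tested), with medians of -0.04, 0.02 and -0.06. Of 12 genes of chromosome structure only Wapl had a region, and of 20 of metabolism and housekeeping only Hk1, and none of these passed the test in any comparison at an adjusted p of 0.05. These regions were 0.719% and 1.09% of the distal regions of the 2 lists, against 1.26% of all autosomal distal regions.

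Genes that mark other cell types also had such regions. Tcf7, a T-cell factor gene, had 1 region, which fell by 0.31 in KO MPP against KO LT-HSC. Pax5, the B-cell factor gene, had 1 region at 20.4 to 27.9 CPM over the 12 libraries, called in no comparison, and Klrb1c, a natural killer cell receptor gene, had 3. Adgre1, the macrophage gene for F4/80, had 23.0, 24.5 and 23.2 CPM in KO MPP and 17.6, 18.0 and 15.8 CPM in KO LT-HSC, a rise of 0.47. The other marker genes with a region were Csf1r, Itgam and Prtn3 of myeloid cells, Klf1 of erythroid cells, Kdr and Pecam1 of endothelium, Meis1 of LT-HSC, and Cd34 and Dntt of MPP. Summed CPM at the regions of the T-cell marker genes, of which 8 of 10 had a region and Cd3g and Cd8a had none, was 167 to 177 in KO LT-HSC, 167 to 173 in WT LT-HSC, 167 to 177 in KO MPP and 180 to 187 in WT MPP. B-cell markers, with regions at 7 of 7 genes, summed to 204 to 211 in KO LT-HSC, 211 to 224 in WT LT-HSC, 199 to 209 in KO MPP and 215 to 228 in WT MPP, so that for both lists the KO MPP libraries lay below the WT MPP libraries. Myeloid markers summed to 137 to 138 in KO LT-HSC, 142 to 147 in WT LT-HSC, 193 to 207 in KO MPP and 196 to 209 in WT MPP. Erythroid and megakaryocyte markers summed to 294 to 311 in KO LT-HSC, 298 to 311 in WT LT-HSC, 212 to 223 in KO MPP and 199 to 205 in WT MPP. For that list the KO MPP libraries lay above the WT MPP libraries. Natural killer cell markers summed to 70.2 to 76.2 in KO MPP and 65.0 to 78.5 in WT MPP. Macrophage and endothelial markers summed to 176 to 181 in KO MPP and 166 to 180 in WT MPP, so that both of these lists overlapped. Whether other cells added to these regions was not tested.

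Regions far from any start and gene end formed a smaller set. At 553 regions both were over 10 kb away, with a median of 28.0 CPM. Their KO ratio of means stayed between 0.8 and 1/0.8 at 486 (87.9%, against 26.4% of all tested regions). Of these 553, 48 were higher and 9 lower in KO LT-HSC against WT, and 44 higher and 89 lower in KO MPP against WT, with median log2 fold changes of 0.031 and -0.045. The shares over all tested regions were 3.27% and 1.47% in KO LT-HSC and 5.12% and 3.59% in KO MPP. Over the 1827 regions as a whole they were 11.5% and 0.985% in KO LT-HSC and 11.7% and 9.85% in KO MPP.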

How the data were processed

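ATAC-seq was measured in 12 mouse libraries, 3 in each of 4 groups, as paired reads of 75 nt from Nextera Tn5 libraries. The authors deposited raw counts per region, and per the submitters' processing notes they used DESeq2 1.22.1, featureCounts, MACS2 2.1.1, Bowtie2 and cutadapt on build GRCm38, listed there without role or order. No source used here says whether reads were shifted for the Tn5 cut. Column totals are counts in the listed regions, not all reads. Distances came from the RefSeq table of GRCm38.p6, whose gene ends carry no strand.

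CPM values were counts divided by the column total. Counts were tested with edgeR 4.0.16 (R 4.3.3): TMM scaling, filterByExpr, a mean per group over all 12 libraries and the quasi-likelihood F test, with Benjamini-Hochberg adjustment over 186373 regions, 1889 being left out as low. All 1827 members passed the filter. SE is the standard error of the log2 fold change, and 95% intervals use its t distribution. p-values measure the spread between libraries, which the labels describe as mice for LT-HSC only. The code was tested on simulated data. Alternatives were RLE, total-count and loess scaling, DESeq2 1.42.0, other filters, the gene-end share as a covariate, a replicate block, each library left out, and other membership thresholds; excluding regions with a start was added after seeing the data. Members, lists and tests were chosen with earlier results of these data known. Named regions were the strongest, the 5 highest and 5 lowest non-overlapping calls per comparison, those nearest 0, the strongest of each list and those beside each threshold. Others are said to have been picked later. The planned motif search over whole regions was not run because no genome sequence was used here. Promoter windows of starts were searched instead.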

Additional observations from a re-analysis of the deposited data

Results flagged for a closer look

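The region in Klf13 (chr7:63924945-63925776), a Krüppel-like transcription factor gene, went in opposite directions in the 2 populations. KO LT-HSC held 45.4, 46.0 and 42.9 CPM and WT LT-HSC 41.9, 39.4 and 41.3 CPM, a log2 fold change of 0.19. KO MPP held 32.8, 32.9 and 24.5 CPM and WT MPP 36.0, 35.0 and 33.2 CPM, a log2 fold change of -0.18. Every KO library lay above every WT library in LT-HSC and below in MPP, but neither change passed the test (adjusted p = 0.16 and 0.153 by edgeR) and the difference between them was not tested. Such opposite, non-overlapping libraries occurred at 11 of the 1827 regions (0.602%), against 0.533% of all tested regions.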

How the results depend on the processing

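The count of regions called between KO MPP and KO LT-HSC, 811, became 369 once the gene-end share was a covariate, and the counts of KO against WT became 51 in LT-HSC, against 229, and 158 in MPP, against 394; 628 intervals then lay in the band, against 1129. An adjusted p of 0.01 left 94 in LT-HSC and 179 in MPP. Other membership rules changed the number of regions and with it the counts, given in the order KO MPP against KO LT-HSC, KO against WT LT-HSC, KO against WT MPP. A mean of 10 CPM gave 1943, 478 and 854, with 2465 intervals and 4219 KO ratios in the band. A mean of 40 CPM gave 217, 71 and 99, with 325 and 435 in the band. A ratio between 0.9 and about 1/0.9 gave 284, 138 and 225, with 1020 KO ratios in the band. A distance over 5 kb gave 524, 137 and 256, with 712 and 1054 in the band. The share of counts in the regions, 6.65%, was 10.9% at 10 CPM, 2.70% at 40 CPM, 3.76% at the narrower ratio, 6.44% with TMM-scaled CPM, 5.33% away from the ends of every RefSeq gene and 4.17% over 5 kb. Leaving out a library in turn gave 671 to 744, 113 to 166 and 182 to 382 calls and 951 to 1082 intervals in the band. With the loess offset the KO MPP against KO LT-HSC fold change turned to -0.12 at Tsga10, -0.05 at Sin3a, -0.15 at Hdac4 and -0.13 at Zfp574. The cause of these changes was not tested beyond the number of regions or libraries used. Of 54 called comparisons of named regions, 30 kept their call under all alternatives, 21 were lost with the gene-end share and 17 when a library was left out. The gene-end share followed the groups compared, so calls lost with it do not show that the groups were equal. With the replicate number as a block the counts were 867, 277 and 480. Between the KO populations, same-numbered libraries correlated at 0.0536 to 0.0637. Each KO MPP library correlated best with the KO LT-HSC library of its own number. In KO against WT the same-numbered correlations were -0.0367 to 0.033. None were computed between the WT populations, and whether the numbers pair mice was not settled. The least-covered region had 314 counts in its poorest library.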
